A study of Mus musculus with 12 samples.

Results

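The genes described here are 9 hormone receptors and luminal transcription factors, chosen by gene name from the 54532 genes in the deposited tables: *Esr1*, *Pgr*, *Prlr*, *Greb1*, *Gata3*, *Foxa1*, *Elf5*, *Stat5a* and *Stat5b*. They were measured by RNA-seq of poly(A) RNA in 12 mammary tumors of MMTV-Neu mice, in which the MMTV promoter drives unactivated Neu, the rodent form of HER2, in mammary tissue. Mice whose tumors had formed were fed a control diet, or a diet with 100 mg/kg of MSU-42011 or of bexarotene, for 10 days, with 4 tumors in each group. Both compounds are agonists of the retinoid X receptor (RXR), a nuclear receptor that pairs with other nuclear receptors. All groups carried the same transgene, and the control diet held the vehicle alone. The comparisons ask whether either RXR agonist changed the level of these genes, and whether the agonists differed from each other at the same diet dose.

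The mammary epithelium has an inner luminal layer and an outer basal layer. Within the luminal layer, hormone-sensing cells carry the estrogen receptor (*Esr1*), the progesterone receptor (*Pgr*) and the pioneer factor *Foxa1*, which opens chromatin for the estrogen receptor. *Greb1* is a target gene and cofactor of the estrogen receptor. Alveolar cells depend on ELF5 and on the prolactin receptor (*Prlr*), which activates STAT5A and STAT5B through JAK2 and so turns on the milk protein genes. GATA3 maintains luminal identity in both branches.

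All 9 are protein-coding genes, and their positions are given on GRCm38 as in the deposited tables. On the plus strand lie *Esr1* at chr10:4611593-5005614, *Pgr* at chr9:8899833-8968611, *Prlr* at chr15:10177238-10349180, *Elf5* at chr2:103411688-103450989 and *Stat5a* at chr11:100859351-100885169. On the minus strand lie *Greb1* at chr12:16670615-16800886, *Foxa1* at chr12:57540628-57546916, *Gata3* at chr2:9857078-9890034 and *Stat5b* at chr11:100780731-100850724. Reads were counted over whole genes, so isoforms, such as the long and short forms of the prolactin receptor, are not separated.

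Total counts ran from 16583413 to 25925027 per tumor, and 3 counts, taken as the floor of detection, corresponded to 0.111 to 0.184 normalized CPM, the read count scaled by the effective library size. Tumors are named by their diet and replicate number. This floor covers counting error only. Luminal epithelial markers were abundant as a sum in all tumors, at 3629 to 7283 normalized CPM over 12 genes. Basal keratins were near absent, with *Krt5* at no more than 0.80 CPM and *Krt14* at no more than 1.23 CPM outside the first bexarotene tumor (bexarotene 1). That tumor stood apart from the others. Its median correlation with the other libraries was 0.915, against at least 0.961 for the rest. The summed level of 10 fibroblast markers was 11484 CPM in it and 112 to 941 CPM in the other 11 tumors, and every one of the 10 was highest there. The second highest sum, 941 CPM, was that of bexarotene 2. The luminal marker sum of bexarotene 1, 3629 CPM, was the lowest of the 12. *Krt19*, a marker in that sum, went the other way, at 28.2 CPM in bexarotene 1 and no more than 1.96 CPM elsewhere. *Erbb2* was at 93.8 to 173 CPM, and reads of the mouse gene and of the Neu transgene cannot be told apart here.

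The 9 genes fell into 6 that were measured well in every tumor and 3 that were almost silent. *Esr1*, *Prlr*, *Gata3*, *Elf5*, *Stat5a* and *Stat5b* passed the filter on low counts. *Pgr*, *Greb1* and *Foxa1* did not, because only 1 tumor held more than 12 reads of any of them. None of the 9 was called different between diets: at an adjusted p under 0.05, edgeR's quasi-likelihood test with Benjamini-Hochberg adjustment called 0% of the 15504 genes tested in each comparison and among the 3 groups. DESeq2 called none of the 9 either, but it set no p for *Pgr* and *Greb1*. It called 0.0296% of genes among the 3 groups, 0.153% between the agonists, 0.0356% between bexarotene and control, and 0.00338% between MSU-42011 and control. By the study's methods the 4 tumors of a group came from 4 mice, and p-values measure the spread between them.

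The sequences upstream of *Pgr* and *Greb1* are shown first because both are textbook estrogen receptor targets, and both were read almost only in bexarotene 1. Each is the 250 bases before the RefSeq start (GRCm38.p6) that coincides with the listed gene start, printed 5′ to 3′ along the strand of the gene. Capitals mark an estrogen receptor half-site, GGTCA on either strand (TGACC when read on the other). The *Pgr* window is chr9:8899583-8899832 on the plus strand and the *Greb1* window is chr12:16800887-16801136 on the minus strand. Both lie directly upstream of the listed gene start, outside annotated exons.

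Pgr: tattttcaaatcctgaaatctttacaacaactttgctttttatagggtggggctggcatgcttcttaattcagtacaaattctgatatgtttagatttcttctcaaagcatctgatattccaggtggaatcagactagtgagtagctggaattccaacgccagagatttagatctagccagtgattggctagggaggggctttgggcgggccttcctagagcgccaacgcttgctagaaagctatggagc
Greb1: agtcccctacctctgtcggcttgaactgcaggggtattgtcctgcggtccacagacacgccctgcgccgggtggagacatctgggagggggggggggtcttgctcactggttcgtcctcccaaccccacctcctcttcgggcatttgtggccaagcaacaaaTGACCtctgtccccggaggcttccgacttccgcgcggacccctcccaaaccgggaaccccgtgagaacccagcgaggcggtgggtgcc

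The *Pgr* window held no half-site and the *Greb1* window held 1, at position -88 from the start. A second RefSeq start of *Greb1*, inside the gene, has a window at chr12:16757240-16757489 with 2 half-sites. A half-site was present in 35.2% of the 32841 windows of the same length in the RefSeq table, which is the background for this match. Other members held half-sites too: *Stat5a* had 3 and 1 in its windows, and *Gata3*, *Foxa1* and 1 of the *Stat5b* starts had 1 each. The windows of *Esr1*, *Prlr* and *Elf5* held none. The full palindrome GGTCANNNTGACC, present in 0.0639% of windows, was found in none of the windows of the 9 genes. The forkhead letters TGTTTAC, present in 3.17% of windows, were found in the window of *Foxa1* and in that of 1 of the *Prlr* starts. These starts lie 805 and 46668 bases inside the listed genes. The RefSeq starts of *Esr1*, *Gata3*, *Elf5*, *Stat5a* and *Stat5b* also lie inside the listed genes, so their windows are not sequence upstream of the listed gene start. The *Greb1* window was richer in CpG (16 sites, 65.2% G and C) than the *Pgr* window (4 sites, 43.6%).

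Of the receptors, *Esr1* was low. Among the 6 measured genes it had the highest coefficient of variation in both treated groups, 37.9% under MSU-42011 and 47.9% under bexarotene. Its normalized level was 14.6, 13.2, 16.2 and 11.1 CPM in the control tumors, 14.9, 11.03, 26.8 and 18.5 CPM in the MSU-42011 tumors, and 25.3, 11.3, 9.83 and 12.8 CPM in the bexarotene tumors. The ranges of all 3 groups overlapped, and 2 tumors, MSU-42011 3 and bexarotene 1, lay above the rest. The group means were 13.8 ± 2.18, 17.8 ± 6.74 and 14.8 ± 7.10 CPM (SD, n = 4). *Esr1* was not called different between MSU-42011 and control (log2 fold change 0.37 ± 0.32 SE, 95% interval -0.33 to 1.07, edgeR adjusted p = 1.00). Without MSU-42011 3 the log2 fold change was 0.10. For bexarotene against control the log2 fold change was 0.11 (95% interval -0.59 to 0.80, edgeR adjusted p = 0.973), and it was -0.28 without bexarotene 1. For MSU-42011 against bexarotene it was 0.26 (95% interval -0.43 to 0.96, edgeR adjusted p = 0.997), and it was 0.65 without bexarotene 1 and -0.0023 without MSU-42011 3. The other steroid receptors were not called in any comparison. Of 8 listed, 7 were tested, and the median log2 fold change was 0.22 for MSU-42011 against control (0.0016 over all genes tested), -0.015 for bexarotene against control (0.030 over all) and 0.035 between the agonists (-0.024 over all). *Nr3c2* had the smallest unadjusted p of the 7 in the test among the 3 groups. It measured 9.40 ± 6.34 CPM in MSU-42011 tumors (18.7 CPM in MSU-42011 3) and 4.46 ± 1.79 CPM in bexarotene tumors. Its log2 fold change between them was 1.07 (edgeR unadjusted p = 0.0330, adjusted p = 0.997). *Nr3c1*, the glucocorticoid receptor, was at 74.3 to 114 CPM. *Esr2*, the second estrogen receptor, was at 0.95 to 3.82 CPM. Of the 12 receptor coregulators listed, all were tested and none was called. Against control, 11 of the 12 had a positive log2 fold change under MSU-42011 (median 0.13, 0.0016 over all genes tested). Under bexarotene 9 of the 12 did (median 0.083, 0.030 over all). *Cited2*, a coactivator, had the smallest unadjusted p of the 12 in the test among the 3 groups, and went the other way under both agonists. It measured 254 ± 82.6 CPM in control tumors and 154 ± 31.7 CPM in bexarotene tumors (log2 fold change -0.73, edgeR adjusted p = 0.762).

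**Figure D1:**
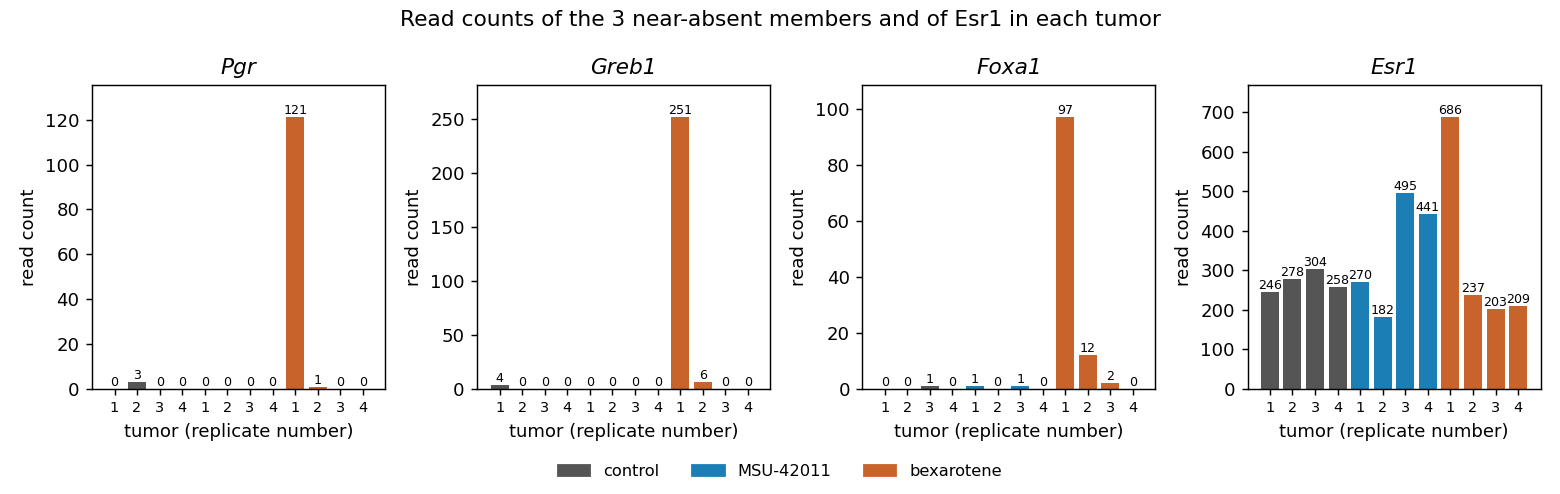
Read counts (linear axis, starting at 0) of *Pgr*, *Greb1*, *Foxa1* and *Esr1* in each of the 12 tumors, with the count printed above each bar. Bexarotene 1 holds 121, 251 and 97 reads of the first 3 genes, whereas *Esr1* has 182 to 686 reads in the 12 tumors.

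*Pgr*, *Greb1* and *Foxa1* were close to absent in 11 of the 12 tumors. *Pgr* had 121 reads in bexarotene 1, 3 in control 2, 1 in bexarotene 2 and 0 in each of the other 9. *Greb1* had 251 reads in bexarotene 1, 6 in bexarotene 2, 4 in control 1 and 0 in the rest. *Foxa1* had 97 reads in bexarotene 1, 12 in bexarotene 2, 2 in bexarotene 3 and at most 1 elsewhere. One tumor therefore held 96.8% of all *Pgr* reads, 96.2% of *Greb1* reads and 85.1% of *Foxa1* reads, but 18.0% of *Esr1* reads and 7.22% to 11.6% of the reads of the other 5 genes. In normalized units bexarotene 1 had 4.46 CPM of *Pgr*, 9.26 CPM of *Greb1* and 3.58 CPM of *Foxa1*, and the highest value in the other tumors was 0.14, 0.29 and 0.57 CPM. The 4 MSU-42011 tumors had no read of *Pgr* or *Greb1*, which allows up to the floor of 0.126 to 0.182 CPM in each. The tumors with the most *Esr1* differed in these reads. MSU-42011 3, with 26.8 CPM of *Esr1*, had no read of *Pgr* or *Greb1*, whereas bexarotene 1, with 25.3 CPM, held nearly all of them. Over the 12 tumors *Esr1* had r = 0.51 with *Pgr*, 0.50 with *Greb1* and 0.44 with *Foxa1* (adjusted permutation p = 0.404 for each, rho 0.15 to 0.19), and 0.67 to 0.69 on deviations from the group means (adjusted permutation p = 0.0946 to 0.11). Without MSU-42011 3 and bexarotene 1, r was -0.31 to -0.080.

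These 3 genes cannot be compared between diets beyond that single tumor. In bulk tissue, fewer cells of a type and less RNA per cell cannot be told apart. The exact two-sided permutation test gave p = 0.714 for *Pgr*, p = 0.429 for *Greb1* and p = 0.143 for *Foxa1* in bexarotene against control, where 70 arrangements of 4 tumors against 4 give a smallest p of 0.0286. Fitted without the filter, edgeR gave adjusted p = 0.709, 0.651 and 0.614 for the same comparison (unadjusted p = 0.0201, 0.0118 and 0.00128). DESeq2 set no p for *Pgr* and *Greb1* after its check for outlying counts, and gave adjusted p = 0.164 for *Foxa1* in this comparison. In the DESeq2 test among the 3 groups *Foxa1* had adjusted p = 0.0838 (unadjusted p = 0.000274), with 85.1% of its reads in bexarotene 1. No fold change is given, since the control and MSU-42011 groups lay at or near the floor.

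Several other genes of hormone-sensing cells were higher in bexarotene 1 than in every other tumor. *Areg*, the amphiregulin ligand that relays the estrogen signal, was at 11.8 CPM there and at no more than 0.24 CPM elsewhere. *Wnt4*, a progesterone-induced ligand, was at 1.48 CPM against at most 0.30 CPM. *Tnfsf11*, which encodes RANKL, had 11 reads there and 3 in the other 11 tumors together. *Igfbp4* and *Ly6a* were at 609 and 170 CPM in bexarotene 1 and at no more than 75.6 and 16.60 CPM elsewhere. Of the 15 genes in this list, 8 were tested, and 5 of these 8 were highest in bexarotene 1, against 19.1% of all tested genes. One of the 5, *Myb*, was only slightly higher there (2.6199 CPM against at most 2.5985 CPM). *Prom1*, also tested, was not highest there, at 25.7 CPM against 52.8 CPM in bexarotene 3. The list was chosen with earlier results of these data known, so the 19.1% is not a strict baseline for it. None of the 8 was called in any comparison. Among the 7 that were not tested, *Areg*, *Wnt4*, *Tnfsf11* and *Cited1* were highest there, and *Tff1* and *Tff3* had 0 reads in every tumor. The abundant genes of the list went the other way. *Xbp1* was lowest in bexarotene 1 (961 CPM against 1084 to 2082 CPM), as was *Igfbp5* (2526 CPM against 3043 to 7303 CPM), and the summed level of the list was lowest there too (4370 CPM against 4605 to 8899 CPM). Markers of other cell types were also highest in this tumor. Beside the 10 fibroblast markers these were all 8 macrophage markers (sum 1581 CPM against 178 to 492 CPM), all 6 endothelial markers (371 against 64.0 to 173 CPM), all 6 skeletal muscle markers (258 against 1.63 to 125 CPM), all 8 adipocyte markers (104 against 13.0 to 36.5 CPM) and 5 of 8 basal markers (267 against 26.6 to 117 CPM). None of the 6 T cell markers was highest in it (sum 7.23 against 4.11 to 11.6 CPM). Among genes with at least 100 reads in all, 224 of 15797 had more than 80% of their reads in bexarotene 1, against 0 to 2 in each other tumor, a count chosen after these values were seen. The part of these other cell types in the *Pgr*, *Greb1* and *Foxa1* reads was not tested.

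*Prlr*, the prolactin receptor, was read well in every tumor and was similar in mean across the groups. It measured 52.5, 74.1, 53.1 and 49.8 CPM in control tumors, 71.1, 59.5, 58.2 and 42.6 CPM in MSU-42011 tumors, and 58.0, 44.6, 55.0 and 56.6 CPM in bexarotene tumors. All ranges overlapped, and control 2 was the highest tumor. The log2 fold change was 0.011 for MSU-42011 against control (95% interval -0.35 to 0.38), -0.10 for bexarotene against control (-0.47 to 0.27) and 0.11 for MSU-42011 against bexarotene (-0.25 to 0.48), with edgeR adjusted p from 0.948 to 1.00.

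*Stat5a* and *Stat5b*, which carry the prolactin signal to the nucleus, had the smallest unadjusted p of the 6 measured genes in the edgeR test among the 3 groups (0.330 and 0.170, adjusted p = 0.998 for both). *Stat5b* had the lowest coefficient of variation of the 6 in every group, 3.98% to 10.5%. It measured 136, 171, 169 and 169 CPM in control tumors, 176, 181, 167 and 167 CPM in MSU-42011 tumors, and 151, 163, 138 and 151 CPM in bexarotene tumors. Every MSU-42011 tumor lay above every bexarotene tumor, the only case among the 6 genes in which a pair of groups did not overlap. Groups did not overlap for 1.17% of tested genes in this comparison, 2.03% between bexarotene and control and 1.97% between MSU-42011 and control. The difference was small, at 1.15-fold (log2 fold change 0.20 ± 0.097 SE, 95% interval -0.014 to 0.41), and was not called (edgeR unadjusted p = 0.0651, adjusted p = 0.997). Its exact permutation p, 0.0286, is the smallest that 4 tumors against 4 can give. The control range, 136 to 171 CPM, overlapped both.

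*Stat5a* measured 144, 204, 192 and 171 CPM in control tumors, 194, 206, 219 and 248 CPM in MSU-42011 tumors, and 192, 228, 105 and 202 CPM in bexarotene tumors. The means were 178 ± 26.2, 217 ± 23.3 and 182 ± 53.1 CPM (SD, n = 4). The MSU-42011 tumors lay at the upper end, with 1 of them below the highest control tumor. The log2 fold change against control was 0.28 ± 0.20 SE (95% interval -0.15 to 0.72, edgeR adjusted p = 1.00, exact permutation p = 0.0571). Against bexarotene it was 0.25 (95% interval -0.19 to 0.69, edgeR adjusted p = 0.997), and for bexarotene against control 0.032 (-0.41 to 0.47, adjusted p = 0.986). *Stat5a* and *Stat5b* are neighbors on chromosome 11 with similar sequences: 15.8% of the 50-base windows of a *Stat5a* transcript occur also in *Stat5b*. The end of *Stat5a* overlaps *Stat3*, which had 49770 reads against 46625 for *Stat5a*, and how shared reads were assigned is not given in the sources used here, so the level of *Stat5a* is uncertain to that extent.

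The unadjusted p was under 0.05 for none of the 6 genes in any comparison, where it was for 6.44% of tested genes between bexarotene and control, 3.95% between the agonists and 1.99% between MSU-42011 and control. The intervals leave room for differences that the tests did not detect. For *Esr1* under MSU-42011 the upper bound was a log2 fold change of 1.07, whereas for *Stat5b* all bounds lay between -0.31 and 0.41.

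**Figure D2:**
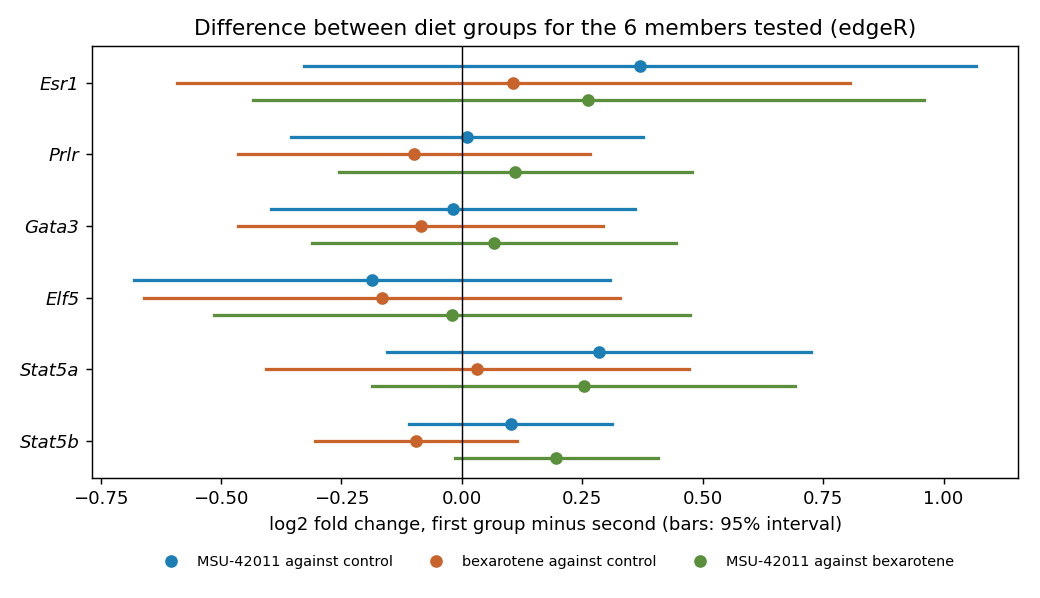
Log2 fold change (points) with its 95% interval (bars) from edgeR for the 6 genes tested, in each of the 3 comparisons between diets, as the first group minus the second. All 18 intervals span 0, from the narrow ones of *Stat5b* to those of *Esr1*, which reach 1.07.

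Of the 12 other genes listed for prolactin and STAT5 signaling, all were tested and none was called in any comparison. *Socs2*, a STAT5-induced inhibitor of cytokine signaling, was at 576 to 888 CPM, and *Cish*, another, was at 37.5 to 50.6 CPM. *Jak2* was at 19.9 to 42.0 CPM and *Ghr*, the growth hormone receptor, at 18.2 to 51.1 CPM. The smallest unadjusted p-values of the list in the test among the 3 groups belonged to *Socs3*, *Igf1* and *Bcl2l1*. *Socs3* and *Igf1* were highest in bexarotene 1, with 33.8 and 85.8 CPM there and at most 9.54 and 14.0 CPM in the others.

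Milk protein genes, which STAT5 and ELF5 induce, were strongly expressed as a sum, though unevenly. Their summed level over 11 genes was 42518 to 76839 CPM in control tumors, 30700 to 55087 CPM in MSU-42011 tumors and 27421 to 64262 CPM in bexarotene tumors. *Csn3*, a casein, was at 11769 to 31517 CPM, whereas *Wap* was at 0.97 to 42.0 CPM and *Olah* at 0.34 to 8.51 CPM. Against control, 9 of the 11 genes had a negative log2 fold change under each agonist, with a median of -0.27 for MSU-42011 (0.0016 over all genes tested) and -0.51 for bexarotene (0.030 over all genes tested), and none was called. The 12 luminal epithelial markers also had mostly negative values, 10 of 12 under MSU-42011 (median -0.21) and 11 of 12 under bexarotene (median -0.20), with none called. *Csn2*, *Wap* and *Glycam1* had the smallest p-values. *Csn2* measured 3967 ± 2864 CPM in control and 1021 ± 956 CPM in bexarotene tumors (log2 fold change -1.96 ± 0.86 SE, edgeR adjusted p = 0.763), and its range in bexarotene tumors, 162 to 2389 CPM, overlapped that of control tumors, 580 to 7428 CPM. *Glycam1* was at 11.5 CPM in control 1 and at most 1.41 CPM elsewhere.

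*Gata3* and *Elf5* had the highest FPKM of the 9 genes, and neither changed with diet in a way the tests detected. *Gata3* measured 355, 254, 336 and 311 CPM in control tumors, 314, 313, 270 and 343 CPM in MSU-42011 tumors, and 243, 349, 222 and 371 CPM in bexarotene tumors. The ranges were nested in one another, and bexarotene tumors held both the highest and the lowest values. The log2 fold change was -0.019 for MSU-42011 against control (95% interval -0.40 to 0.36), -0.086 for bexarotene against control (-0.46 to 0.29) and 0.067 for MSU-42011 against bexarotene (-0.31 to 0.45), with edgeR adjusted p from 0.958 to 1.00. *Gata3* overlaps 3 other listed genes, with 3416 reads together against 73439 for *Gata3*.

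*Elf5* measured 356, 417, 304 and 347 CPM in control tumors, 293, 402, 252 and 305 CPM in MSU-42011 tumors, and 208, 385, 242 and 434 CPM in bexarotene tumors. The bexarotene tumors again spanned the whole range, with 2 low (bexarotene 1 and 3) and 2 high. The log2 fold change was -0.19 for MSU-42011 against control (95% interval -0.68 to 0.31), -0.17 for bexarotene against control (-0.66 to 0.33) and -0.020 for MSU-42011 against bexarotene (-0.51 to 0.47), with edgeR adjusted p from 0.940 to 1.00. Without bexarotene 1, *Elf5* differed by -0.0091 between bexarotene and control on the log2 scale.

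**Figure D3:**
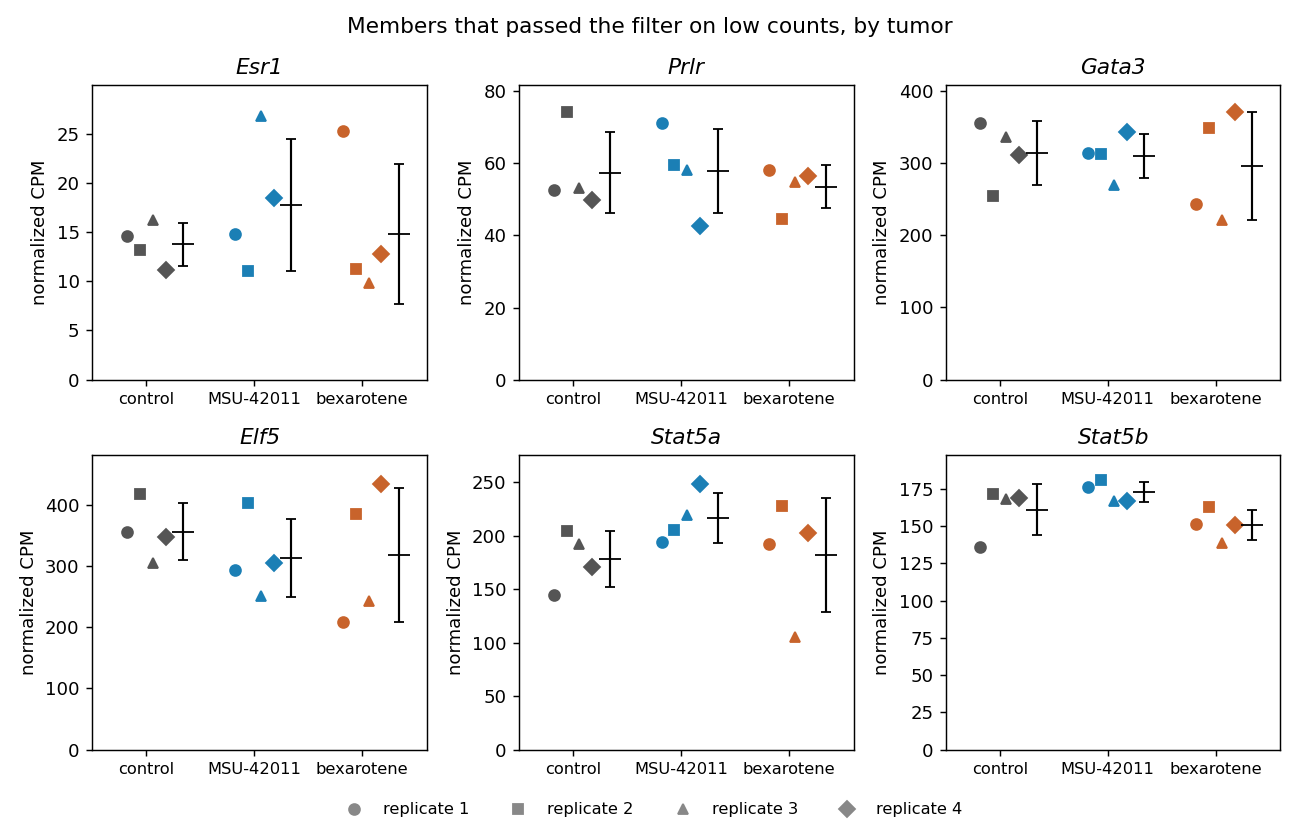
Normalized CPM (linear axes, starting at 0) of *Esr1*, *Prlr*, *Gata3*, *Elf5*, *Stat5a* and *Stat5b* in each tumor, with a marker shape for each replicate number and the mean ± SD of each group (n = 4) at its right. The groups overlap in every panel except MSU-42011 and bexarotene for *Stat5b* (167 to 181 against 138 to 163 CPM).

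Of 19 other luminal and progenitor transcription factors, 17 were tested and none was called. *Sox10*, a factor of luminal progenitors, was at 695 to 1293 CPM, *Tfap2c* at 304 to 627 CPM and *Ehf* at 236 to 489 CPM, whereas *Tbx3*, a factor of hormone-sensing cells, was at 6.01 CPM in bexarotene 1 and at most 1.46 CPM elsewhere. *Tfap2b*, *Nfib* and *Hey1* had the smallest p-values. *Tfap2b*, an AP-2 factor, was read at 0 to 0.34 CPM in control tumors. It was at 98.0 and 128 CPM in MSU-42011 3 and 4, 25.3 CPM in bexarotene 4 and 7.23 CPM in bexarotene 1, and at 0 to 0.34 CPM in the other 4 treated tumors. The difference between MSU-42011 and control was not called (edgeR unadjusted p = 0.0045, adjusted p = 1.00). *Nfib* measured 642 ± 90.8 CPM in control, 497 ± 28.1 CPM in MSU-42011 and 506 ± 76.1 CPM in bexarotene tumors, with a log2 fold change of -0.37 against control for MSU-42011 (edgeR adjusted p = 1.00) and of -0.34 for bexarotene (adjusted p = 0.762).

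Per length of transcript, the level of the 9 genes spanned more than 3 orders of magnitude. FPKM scales each count by the library total and a gene length, so it allows genes to be compared. The mean FPKM over the 12 tumors was 335 for *Gata3*, 208 for *Elf5*, 79.1 for *Stat5a*, 44.0 for *Stat5b*, 22.4 for *Prlr* and 5.79 for *Esr1*. By FPKM, these 6 stood in that order in each of the 12 tumors. The closest neighbors were *Gata3* and *Elf5*, whose ratio of FPKM was 1.05 to 2.002, and *Stat5a* and *Stat5b*, with a ratio of 1.15 to 2.24. The median FPKM of *Gata3* stood at the 98.3 percentile of tested genes and that of *Esr1* at the 37.3 percentile, against a median of 10.5 FPKM over tested genes. *Greb1*, *Foxa1* and *Pgr* averaged 0.311, 0.212 and 0.0956 FPKM, and 0.0173, 0.0424 and 0.0039 FPKM without bexarotene 1. Their order is not resolved by so few reads. The length behind the FPKM was 1.51 to 6.11 times shorter than the length listed for the same gene. Divided by the listed length instead, an alternative chosen after seeing the data, *Stat5b* stands above *Stat5a* in the mean (29.1 against 26.9 on that scale), and *Foxa1* above *Greb1*. The order within those pairs therefore depends on the length used. The mean of *Gata3* stays above that of *Elf5* (76.9 against 55.6). In control 2, where their FPKM were closest (265 and 254), their order also depends on the length.

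**Figure D4:**
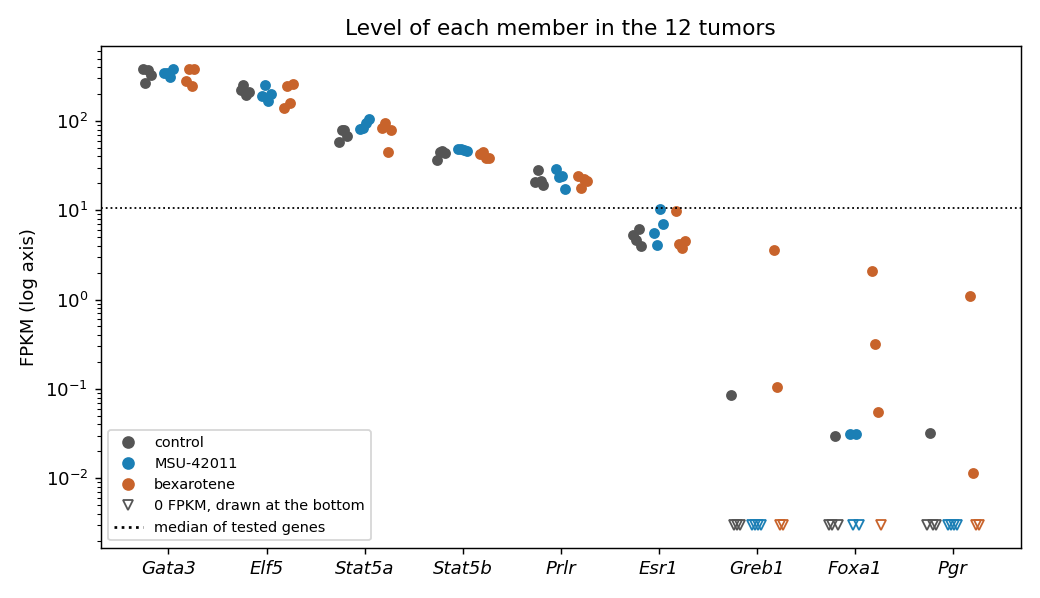
FPKM (log axis) of the 9 genes in each of the 12 tumors, colored by diet, with values of 0 drawn as open triangles at the bottom and the median of tested genes, 10.5 FPKM, as a dotted line. *Gata3*, *Elf5*, *Stat5a*, *Stat5b* and *Prlr* lie above that line in every tumor, *Esr1* lies below it, and *Greb1*, *Foxa1* and *Pgr* rise above 1 FPKM only in bexarotene 1.

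Across tumors the members showed little joint variation that the number of tumors could establish. Of 36 pairs, none passed a permutation test of Pearson's r over the 12 tumors after Benjamini-Hochberg adjustment over the 36. *Stat5a* and *Stat5b* had r = 0.69 (permutation p = 0.0136, adjusted p = 0.187) and Spearman's rho = 0.38 (permutation p = 0.226, adjusted p = 0.741), and r was -0.0042 without control 1 and bexarotene 3. *Gata3* and *Elf5* had r = 0.61 (permutation p = 0.0361, adjusted p = 0.244) and rho = 0.57 (permutation p = 0.059, adjusted p = 0.708), with r = 0.21 without bexarotene 1 and 3. *Esr1* and *Elf5* had r = -0.60 (permutation p = 0.0417, adjusted p = 0.244) and rho = -0.43 (permutation p = 0.161, adjusted p = 0.724), with r = -0.10 without MSU-42011 3 and bexarotene 1. The highest correlations, 0.94 to 0.98 among *Pgr*, *Greb1* and *Foxa1*, had adjusted permutation p of 0.187 to 0.204. Without bexarotene 1 they were 0.11 for *Pgr* and *Greb1*, 0.18 for *Pgr* and *Foxa1* and 0.65 for *Greb1* and *Foxa1*. Leaving out control 2 as well gave 0.73 for *Pgr* and *Greb1* and 0.96 for *Pgr* and *Foxa1*. Only 1 *Pgr* read, in bexarotene 2, was then left. Without bexarotene 1 and 2, *Greb1* and *Foxa1* had r = -0.26. Where 2 tumors were left out, they were those farthest from the median of the first gene, which narrows its range. A lower r without them therefore does not show that a relation rests on them.

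The genes most like each member over the 12 tumors, by Pearson's r of log2 CPM, are given as a description, and all points share the same libraries. *Elf5* was closest to *Mettl26*, *Rpl26* and *Ccdc107* (r = 0.95, 0.94 and 0.94). *Gata3* was closest to *Doc2g*, *Ndufa11* and *Hsp90aa1* (0.90 each), and *Esr1* to *Phlpp2*, *Sec24b* and *Zbtb1* (0.91, 0.90 and 0.89). *Prlr* was closest to *Zfp874a*, *Btg2* and *Ctdsp2* (0.86, 0.83 and 0.79), *Stat5a* to *Trappc11*, *Mars2* and *Gm20604* (0.88, 0.86 and 0.86) and *Stat5b* to *Paxip1*, *Gm16794* and *Edrf1* (0.85, 0.81 and 0.81). The nearest genes of *Pgr* (*Mmp19*, *Pygm*, *Srgap1*), *Greb1* (*Jag1*, *Rarres2*, *Srgap1*) and *Foxa1* (*Mrc2*, *Fndc1*, *Nhsl2*) had r of 0.96 to 0.99 and were all highest in bexarotene 1. Without the 2 tumors farthest from the median of each member, r was 0.90 to 0.93 for *Elf5*, 0.82 to 0.87 for *Gata3*, 0.68 to 0.77 for *Esr1*, 0.60 to 0.92 for *Prlr*, 0.14 to 0.84 for *Stat5a*, 0.51 to 0.67 for *Stat5b*, 0.012 to 0.83 for *Pgr*, -0.041 to 0.67 for *Greb1* and 0.30 to 0.55 for *Foxa1*.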

How the data were processed

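RNA of 12 tumors was enriched for poly(A) RNA and sequenced. The submitters' processing notes name STAR 2.6.1d, featureCounts 1.5.0-p3 and DESeq2. The strand setting is not given in the sources used here. The authors deposited raw read counts per gene, with no normalization, and FPKM values, that were each count scaled by library total and a fixed gene length (within 0.001 for 29907 of 29907 genes checked). Counts were normalized by TMM in edgeR 4.0.16 (R 4.3.3) and filtered by filterByExpr at its defaults, leaving 15504 genes. The quasi-likelihood F test was run two-sided on all 12 tumors, with diet as the only factor, with Benjamini-Hochberg adjustment over all tested genes. The biological coefficient of variation was 0.338. Total counts were 16583413 to 25925027 per tumor, and floors cover counting error only. Single genes were compared by exact permutation tests and pairs of genes by 100000 permutations, on log2(CPM + 0.5). Alternatives were DESeq2 1.42.0, other filters and scaling, limma 3.58.1 on log2(FPKM + 1) and log2(FPKM + 0.1), a replicate block and leaving out each tumor. Scripts were tested on simulated data. Named genes are the 9 members, the 3 genes most correlated with each, and up to 3 genes of each list with the smallest p among the 3 groups. Genes outside this rule were named after their values were seen. The members and lists were chosen with earlier results of these data known. Gene coordinates are those of the files, which match GENCODE M21 (GRCm38).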

Additional observations from a re-analysis of the deposited data

Results flagged for a closer look

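Groups of 4 tumors were screened by Dixon's ratio, the gap between the extreme tumor and its neighbor over the range of the group, set against its 95% critical value. Of 129 groups screened, 22 passed it, and in 12 of them the extreme tumor was bexarotene 1 as the highest. The nominal rate of about 1 in 20 holds for independent, normal values and is not a baseline here. The groups share the same libraries, some genes were picked by their smallest p here, and some groups had reads in only 1 tumor. In the bexarotene group bexarotene 1 was set apart as the highest for *Pgr* (ratio 0.989), *Greb1* (0.969) and *Foxa1* (0.84), and also for *Igfbp4* (0.926), *Ly6a* (0.93) and *Igf1* (0.878). The summed markers of basal cells (0.867), fibroblasts (0.932), adipocytes (0.93), macrophages (0.89), endothelium (0.953) and skeletal muscle (0.998) set it apart as well. The summed level of other luminal and progenitor transcription factors was lowest in it (0.883). In the control group, control 2 was highest for *Prlr* (0.866) and control 1 lowest for *Stat5b* (0.924), and control 1 was highest for *Glycam1* (0.952) and for summed skeletal muscle markers (0.981). The single control tumors with 3 reads of *Pgr*, 4 of *Greb1* and 1 of *Foxa1* had ratios of 1.0, because the other 3 had 0 reads. In the MSU-42011 group, the summed level of prolactin and STAT5 signaling was highest in MSU-42011 3 (0.937), and that of luminal progenitor markers was lowest in MSU-42011 2 (0.856).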

How the results depend on the processing

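No alternative called any of the 9 genes. Of 378 alternative values of the log2 fold changes of the 6 tested genes, 351 kept their direction and 27 reversed, all with adjusted p over 0.6. Leaving out 1 tumor at a time, the log2 fold change for MSU-42011 against control ran from -0.10 to 0.16 for *Prlr* and from -0.11 to 0.047 for *Gata3*. For bexarotene against control it ran from -0.28 to 0.26 for *Esr1*, -0.16 to 0.044 for *Prlr*, -0.22 to 0.030 for *Gata3* and -0.096 to 0.22 for *Stat5a*. For MSU-42011 against bexarotene it ran from -0.0023 to 0.65 for *Esr1*, -0.0024 to 0.24 for *Prlr*, -0.049 to 0.20 for *Gata3* and -0.18 to 0.17 for *Elf5*. With limma on log2(FPKM + 1) and log2(FPKM + 0.1), *Gata3* reversed for MSU-42011 against control (0.049 in both) and *Elf5* for MSU-42011 against bexarotene (0.046 in both). With a replicate block, *Elf5* reversed in the latter comparison (0.0084), and no other direction or call changed. Same-numbered tumors did not deviate together (correlations from -0.35 to 0.35 over 12 pairs, 4 of them over 0.1), so the numbers are not taken as pairs. In 0, 3 and 3 of 8 tumors per comparison the best match in the other group had the same number. Over all genes tested, edgeR on all 12 tumors called 0 in each comparison and among the 3 groups, where DESeq2 called 25 between the agonists, 6 between bexarotene and control, 5 among the 3 groups and 1 between MSU-42011 and control. Leaving out 1 tumor gave 0 to 1 genes in bexarotene against control and among the 3 groups, the 1 being without MSU-42011 2. Taken as deviations from the group means, 3 of the 36 pairs of members passed, all among *Pgr*, *Greb1* and *Foxa1*, most of whose reads were in bexarotene 1. Leaving out 1 tumor gave 0 to 1 pairs, the 1 being without control 2, bexarotene 2 or bexarotene 3. The cause of the other changes was not tested. With 4 tumors a group, intervals of the log2 fold change reached 1.07, and *Pgr*, *Greb1* and *Foxa1* lay at the floor of 3 counts in most tumors.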
